A study of Mus musculus with 16 samples.

Results

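The semaphorins, plexins and neuropilins are a ligand and receptor system best known for steering growing axons. The members were every protein-coding gene with a symbol made of Sema and a number, of Plxna, Plxnb, Plxnc or Plxnd and a number, or equal to Nrp1 or Nrp2. That gave 31 genes of the 55359 gene identifiers in the count files: 20 semaphorins (7 of class 3, 6 of class 4, 2 of class 5, 4 of class 6 and 1 of class 7), 9 plexins and 2 neuropilins. The 3 antisense transcripts named after Plxna4 were left out. All 31 members had enough reads to be tested.

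RNA was taken from the cortex of mouse fetuses on gestational day 16 and sequenced in 16 libraries. The control fetuses had no labelled exposure, and in the other 3 groups the label names ethanol exposure of the father (paternal), of the mother (maternal) or of both parents (dual). Each exposure group held 2 male and 2 female libraries. No label names the strain, the dose or the timing of ethanol. Nor do the labels say that the 2 replicates in a group had different mothers, so a p-value here weighs only library-to-library spread, some of which may be technical.

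Class 3 semaphorins are secreted, and most of them bind a neuropilin, which holds them to a class A plexin that carries the signal into the cell. Semaphorins of classes 4, 5 and 6 span the membrane, and the class 7 semaphorin is anchored to it by a lipid. They bind plexins directly. The inner part of a plexin acts on small GTPases, among them Rap and R-Ras, and through them on the actin and microtubule skeleton. In the fetal cortex the system guides axons, the migration of neurons and the growth of dendrites, and in blood vessels some members guide endothelial cells.

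The male libraries held between 15336566 and 19966696 counts and the female libraries between 26134287 and 35218456, so sex and depth went together and cannot be told apart. The share of counts on unverified transcripts and sense-intronic RNAs was 0.872% and 0.860% in the dual females, while the remaining female libraries held 0.325% to 0.391% and males 0.280% to 0.534%. Gene identifiers with no symbol in the annotation took 17.8% of counts in male dual replicate 2 and 14.2% in male paternal replicate 1, against 1.96% to 8.49% in the other males and 1.73% to 2.43% in females. Markers of the cortex were high in every library, with a summed level of 10 markers between 2185 and 2712 CPM (counts scaled to a common library size by the trimmed mean of M values, TMM), and none of the 10 passed the test in dual against control fetuses. No marker of the 8 cell type lists was at 0 in any library; the lowest was the microglial marker Aif1 with 6 counts.

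Upstream sequences are shown for 4 of the members that passed a test. They are the 250 bases before the RefSeq start of the gene. Each of the 4 genes was called lower in dual against control females, as described further on, and only Sema4b also over both sexes. Plxna1 and Sema4c were called in females too. No window was at hand for Plxna1, and the end of the Sema4c entry did not match a GENCODE transcript. The sequences come from a RefSeq table of build GRCm38.p6, a build other than that of the counts. Each is written 5′ to 3′ on its gene's strand, and capitals mark the GC box, which can bind Sp family factors, as GGGCGG or its reverse complement CCGCCC, also where copies overlap. The windows are chr1:62703067-62703316 on the plus strand for Nrp2, chr15:89180789-89181038 on the minus strand for Plxnb2, chr6:115995006-115995255 on the minus strand for Plxnd1 and chr7:80186620-80186869 on the plus strand for Sema4b.
Nrp2: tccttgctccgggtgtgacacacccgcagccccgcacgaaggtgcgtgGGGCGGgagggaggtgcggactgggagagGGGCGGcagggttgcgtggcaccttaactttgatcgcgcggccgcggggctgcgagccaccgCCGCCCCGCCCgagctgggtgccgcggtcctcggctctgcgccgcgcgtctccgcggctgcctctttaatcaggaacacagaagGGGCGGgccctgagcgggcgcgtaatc
Plxnb2: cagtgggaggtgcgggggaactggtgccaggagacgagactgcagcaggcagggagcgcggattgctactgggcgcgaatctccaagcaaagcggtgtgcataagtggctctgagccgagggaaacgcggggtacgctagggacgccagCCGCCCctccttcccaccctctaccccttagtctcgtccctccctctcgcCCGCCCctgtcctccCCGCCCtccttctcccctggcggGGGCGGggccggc
Plxnd1: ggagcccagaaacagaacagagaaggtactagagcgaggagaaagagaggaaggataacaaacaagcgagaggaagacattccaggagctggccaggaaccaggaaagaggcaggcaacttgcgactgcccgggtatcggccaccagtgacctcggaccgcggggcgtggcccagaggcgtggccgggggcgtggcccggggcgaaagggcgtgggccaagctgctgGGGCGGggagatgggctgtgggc
Sema4b: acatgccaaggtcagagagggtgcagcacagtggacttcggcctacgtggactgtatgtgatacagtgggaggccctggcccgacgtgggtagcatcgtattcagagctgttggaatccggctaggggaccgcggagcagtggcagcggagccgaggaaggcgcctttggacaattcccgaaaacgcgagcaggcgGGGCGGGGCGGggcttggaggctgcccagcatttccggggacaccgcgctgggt
The Nrp2 window holds 5 GC boxes, the Plxnb2 window 4, the Sema4b window 2 and the Plxnd1 window 1. A window was at hand for 26 of the 31 members, and 20 of those 26 (76.9%) held a GC box on either strand, against 44.3% of 16500 windows of protein-coding genes and 32.7% of all 32851 windows. These sets were not chosen alike. A member had the window nearest its outermost GENCODE start, a protein-coding gene its first listed window, and the full set kept every window. Among the 26, the ends of the Sema3d, Sema4a, Sema4c and Sema6c entries matched no GENCODE transcript. The pentamer CCAAT, searched on both strands, was in 4 of the 26 (15.4%) against 36.0% of protein-coding windows. TATAAA was in 0 of the 26 against 11.9%, and CACGTG, which reads the same on both strands, in 1 (3.85%) against 6.80%. The 26 windows held a median of 15.5 CpG dinucleotides, against 10 in protein-coding windows, and a median of 64.6% C and G against 56%. The relation of the GC box count to this content was not tested. The RefSeq starts of Sema3a and Sema4d used here lie 271370 and 37064 bases from the outermost start of the gene in the GENCODE annotation, and the other 24 lay within 1611 bases of it. Those of Sema3d, Sema4f, Sema5b and Plxnb3 held no GC box, nor did the distant windows of Sema3a and Sema4d. A match is a string of letters and not a measured binding site.

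The receptors were the most abundant part of the system. Levels were set per kilobase of exon, with all annotated exons of a gene as its length. The median level over the 16 libraries was then 51.4 CPM for Plxna2, 44.8 for Plxna4, 36.0 for Plxnb2, 31.6 for Plxna1 and 22.7 for Plxna3. Plxna2 was at 1049.9, 849.8, 819.8 and 789 CPM in the controls (females first) and at 787 to 915 in the 12 exposed libraries, so 1 female control stood above all others. Class A plexins are the receptors that neuropilins pair with, and Plxnb2 is a receptor for class 4 semaphorins. The 9 plexins together made up 52.2% to 54.5% of the summed per-kilobase level of the 31 genes in each library, with a median of 52.9%. Class 6 semaphorins made up 13.9%, class 4 semaphorins 12.3%, the 2 neuropilins 7.33%, class 3 semaphorins 6.61%, Sema7a 4.07% and the 2 class 5 semaphorins 2.81%, each as the median over libraries. The shares were not computed with the longest transcript as length, where Nrp1 rose from 12.7 to 34.1 CPM per kilobase and Sema7a stayed at 18.0.

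**Figure D1:**
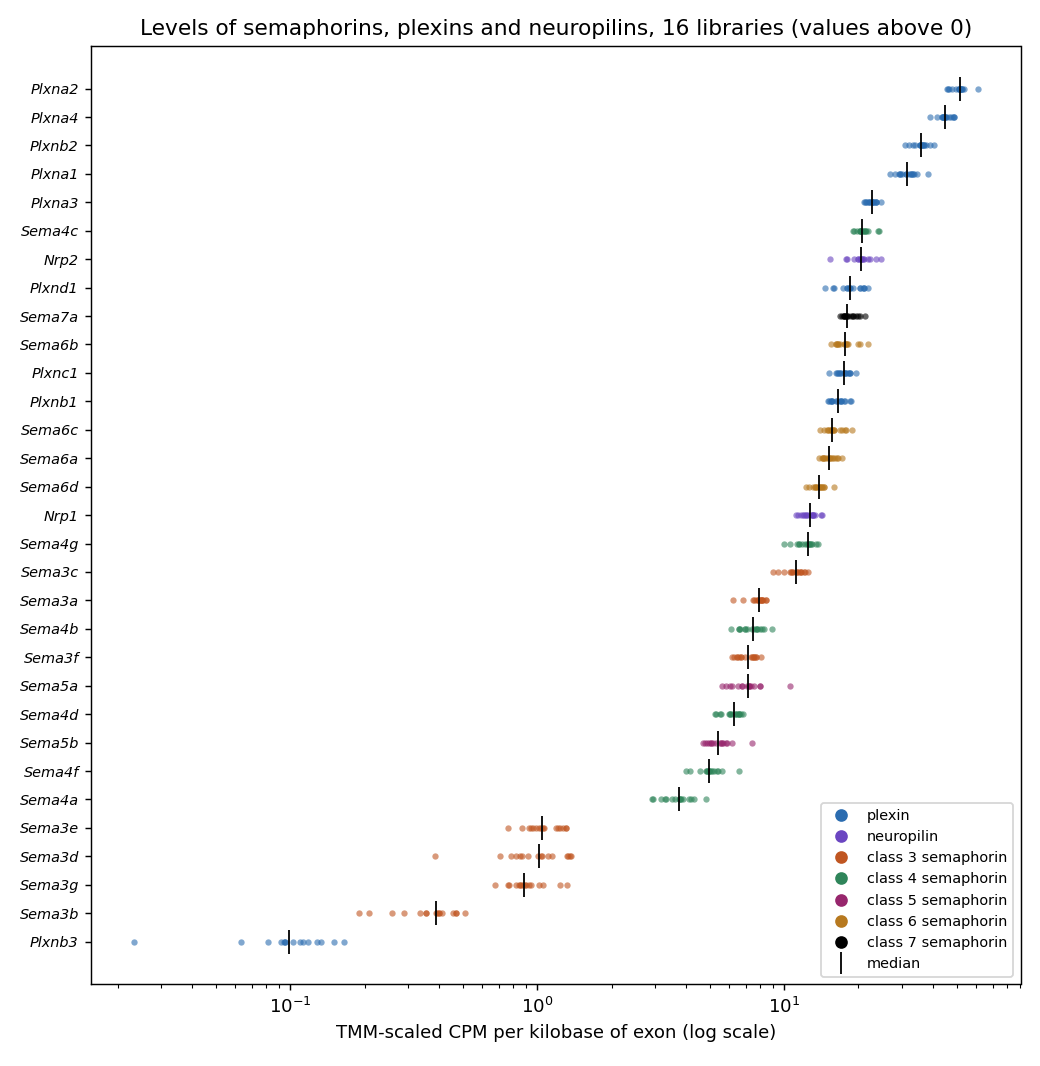
Level of each of the 31 genes in TMM-scaled CPM per kilobase of exon (log axis), 1 point per library and a bar at the median of 16; the 1 library with no Plxnb3 count is not drawn. Plxna2 leads at a median of 51.4, and Plxnb3 lies apart at the bottom at 0.0990.

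Among ligands, the membrane-bound ones led. Sema4c, a ligand of Plxnb2, had the highest semaphorin median at 20.7 CPM per kilobase, followed by Sema7a at 18.0 and Sema6b at 17.6. Sema3c, which attracts axons of the corpus callosum, was the highest secreted ligand at 11.2, and Sema3a, the classic repellent of cortical axons, followed at 7.94. The lowest were Sema3e (1.05), a ligand of Plxnd1, Sema3d (1.02), Sema3g (0.885), Sema3b (0.390) and Plxnb3 (0.0990), which had between 0 and 39 counts in a library. In the order of medians, the ranges of 2 neighbours did not overlap between Plxna1 and Plxna3, Sema3c and Sema3a, Sema4a and Sema3e, Sema3g and Sema3b, and Sema3b and Plxnb3. All other neighbours overlapped over the 16 libraries. With the longest transcript as the length, Sema3a (18.6) stood above Sema3c (14.6), Nrp1 moved from the 16th to the 5th place and Sema7a from the 9th to the 18th, while Plxna2, Plxna4 and Plxnb2 stayed the first 3.

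Members differed in how much they varied between libraries. Plxna3, an X-linked class A plexin, had the smallest coefficient of variation over the 16 libraries, 4.26%, and Plxna4 followed with 5.81%, Sema6d with 6.11% and Sema6a with 6.23%. The 4 members with the fewest counts varied most, with 43.3% for Plxnb3, 27.0% for Sema3d, 25.4% for Sema3b and 18.3% for Sema3g. Sema5a stood at 16.3%, with 197 CPM in female control replicate 1 against 105 to 149.9 in the other 15 libraries.

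Paternal exposure alone was compared with control to ask whether a father's exposure alone changes these genes, and no member passed the test. By edgeR's quasi-likelihood test with Benjamini-Hochberg adjustment over all 21543 genes tested, 0 members and 0% of all genes passed an adjusted p of 0.05. DESeq2 also called 0 members. At an unadjusted p under 0.05, 7 of the 31 members differed, 6 lower and 1 higher, against 8.45% of all genes. The 3 members of smallest p were Plxna1 (log2 fold change -0.22 ± 0.05 SE, adjusted p = 0.388), Plxnc1, the receptor of Sema7a (-0.18 ± 0.05, adjusted p = 0.439), and Sema6a, a membrane ligand of Plxna2 and Plxna4 (-0.16 ± 0.06, adjusted p = 0.470).

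The library values behind these differences lay close together. Plxna1 was at 312, 346, 304 and 297 CPM in the 4 control libraries (females first) and at 289, 282, 244 and 267 in the paternal ones, so the 2 ranges did not overlap. Plxnc1 was at 151, 154, 164 and 154 CPM in controls and at 141, 138, 126 and 145 after paternal exposure, again without overlap. Sema6a was at 133.7, 151, 140.8 and 146 CPM in controls and at 134.0, 129, 121 and 126 after paternal exposure, and its ranges overlapped by 1 library on each side. Leaving out female control replicate 1 brought Plxna1 (adjusted p = 0.0120) and Sema6a (adjusted p = 0.0344) under the threshold, while the calls among all genes went from 0 to 672 (3.04%). Male paternal replicate 1, with its large share of identifiers without a symbol, was the lowest paternal library for Plxna1, Plxnc1 and Nrp2, and the part of that share in these values was not tested. The 2 neuropilins, the co-receptors, had differences of opposite sign that did not pass: -0.21 ± 0.08 for Nrp2, at 258, 236, 182 and 242 CPM in paternal libraries (adjusted p = 0.512), and 0.13 ± 0.06 for Nrp1 (adjusted p = 0.605). Sema3c was the 1 member with an unadjusted p under 0.05 on the higher side (0.17 ± 0.07, adjusted p = 0.547), at 77.2, 64.5, 81.5 and 75.1 CPM in controls and at 86.2, 83.0, 79.5 and 86.8 after paternal exposure.

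Maternal exposure alone gave 0 members and 0% of all genes past an adjusted p of 0.05 by edgeR, and 0 members by DESeq2. At an unadjusted p under 0.05, 3 members were lower and 0 higher, against 3.79% of all genes. They were Sema6a (-0.14 ± 0.06), Plxnc1 (-0.12 ± 0.05) and Sema3f, a secreted ligand of Nrp2 (-0.13 ± 0.06), each with an adjusted p of 0.998. Sema6a was at 127, 126, 134 and 131 CPM after maternal exposure, Plxnc1 at 147, 135, 140 and 153, and Sema3f at 38.4, 38.9, 31.9 and 34.8 against 40.0, 42.0, 39.3 and 36.3 in controls. All 3 overlapped the control range.

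**Figure D2:**
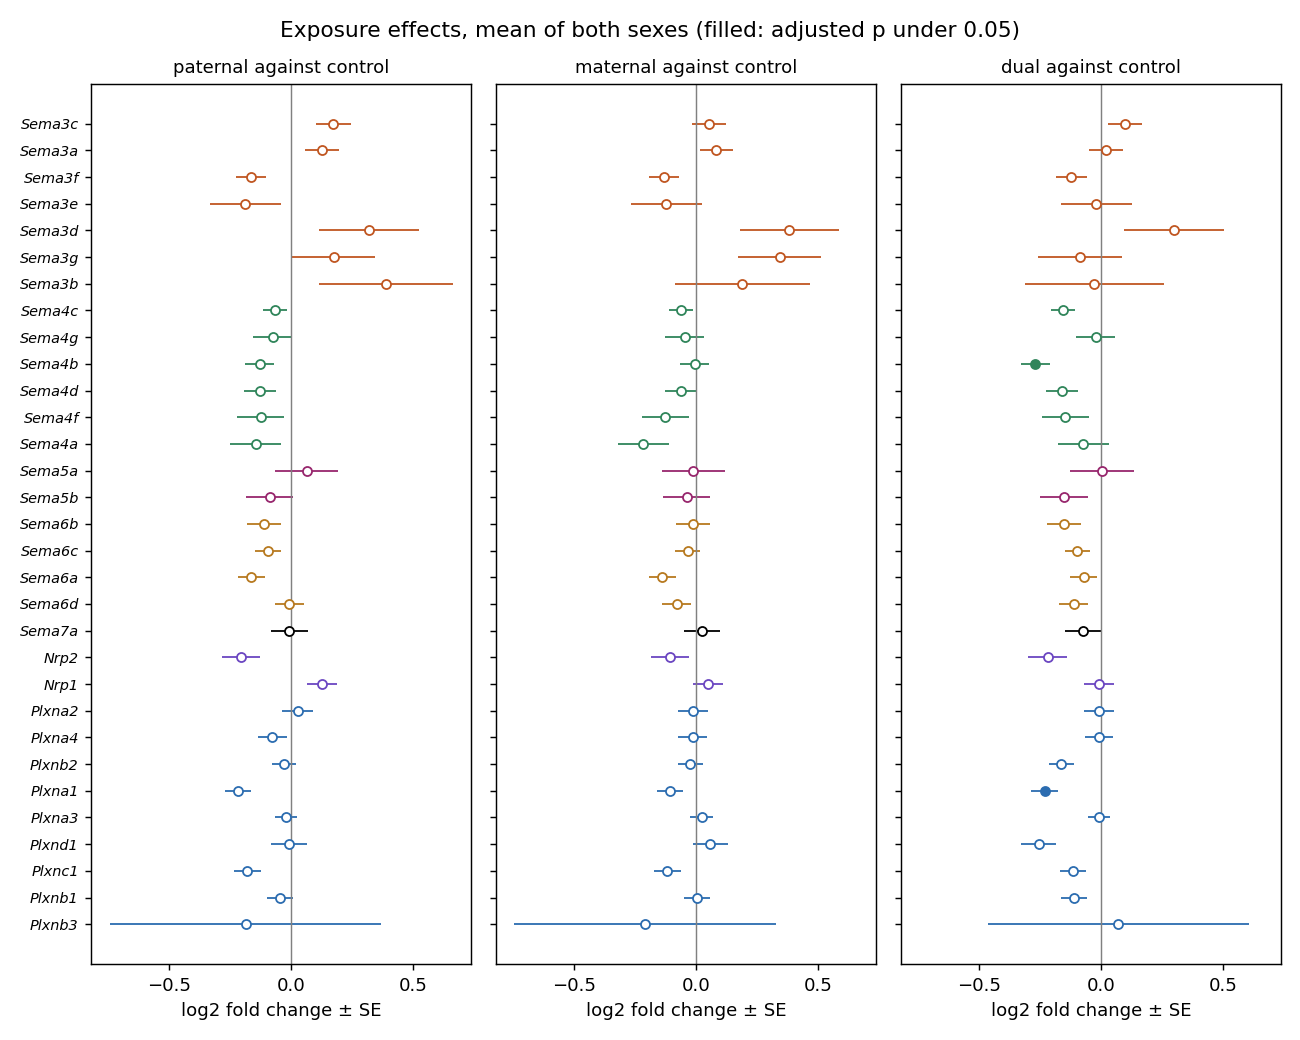
Log2 fold change ± SE of each gene against control (mean of both sexes, 4 libraries against 4) after paternal, maternal and dual exposure; colours mark the class and filled points an adjusted p under 0.05. Only Sema4b and Plxna1 are filled, in the dual panel, at -0.27 and -0.23.

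Dual exposure was the comparison in which members passed, and both that did were lower. By edgeR, 2 of 31 members (6.45%) had an adjusted p under 0.05 in dual against control fetuses over both sexes, against 3.36% of all genes in either direction and 0.641% called lower. Sema4b, a membrane-bound class 4 ligand, was at 46.9 and 50.5 CPM in female and 40.0 and 41.7 in male controls, and at 37.4 and 39.3 in female and 34.3 and 37.1 in male dual libraries. No dual library reached the lowest control library. The log2 fold change was -0.27 ± 0.06 (adjusted p = 0.0190), 17.0% lower. Plxna1, a receptor for class 3 and class 6 semaphorins, was at 254 and 283 CPM in female and 265 and 268 in male dual libraries, all under the control range given above. Its log2 fold change was -0.23 ± 0.05 (adjusted p = 0.0253).

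Both calls depended on single libraries and on which genes were tested. Sema4b lost its call without female dual replicate 1 (adjusted p = 0.0703), male control replicate 1 (0.0772), male control replicate 2 (0.0508) or male dual replicate 1 (0.125), and Plxna1 without female dual replicate 1 (0.107), male control replicate 1 (0.124) or male dual replicate 1 (0.109). With protein-coding genes alone in the test, the adjusted p was 0.0971 for Sema4b and 0.141 for Plxna1, and 0 of 15056 genes passed. With the share of unverified and sense-intronic transcripts as a covariate, the log2 fold changes were -0.19 and -0.28 and 0 of 21543 genes passed. In females only the dual libraries had a high share, so this fit cannot tell the share from dual exposure there. Part of the exon length of Plxna1 (10.7%) overlaps the antisense transcript Gm26811, whose median was 2.55 CPM, and no source at hand gives the strand setting of the counting.

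Together with Sema4b and Plxna1, 9 members had an unadjusted p under 0.05, all lower, against 8.36% of all genes that were lower at that p, and the others of these 9 did not pass by edgeR. Plxnd1, which carries signals of Sema3e in blood vessels, had -0.26 ± 0.07 (adjusted p = 0.0648), and DESeq2 called it (adjusted p = 0.0335). Plxnb2 had -0.16 ± 0.05 (adjusted p = 0.0812), its ligand Sema4c -0.16 ± 0.05 (adjusted p = 0.0909), and Nrp2, co-receptor of Sema3f, -0.22 ± 0.08 (adjusted p = 0.132). The estimate was below 0 for 26 of the 31 members, with a median of -0.09, whereas 10751 of all 21543 genes were below 0. Those 21543 genes include non-coding ones, whereas all 31 members code for proteins, so the 2 shares are not for like genes. With protein-coding genes alone in the fit, the log2 fold changes of the members shifted upwards, to -0.23 for Sema4b and -0.19 for Plxna1, and 19 of the 31 were below 0 (61.3%, from 83.9%) with a median of -0.05. The median over all 15056 genes in that fit was -0.0019. The paternal comparison, which shares the control libraries, had 23 of 31 below 0, and the maternal one 21. By class, the dual estimate was below 0 for 6 of 6 class 4 semaphorins, 4 of 4 of class 6, 8 of 9 plexins, 2 of 2 neuropilins and 4 of 7 class 3 semaphorins; with protein-coding genes alone these were 5 of 6, 4 of 4, 5 of 9, 1 of 2 and 2 of 7.

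**Figure D3:**
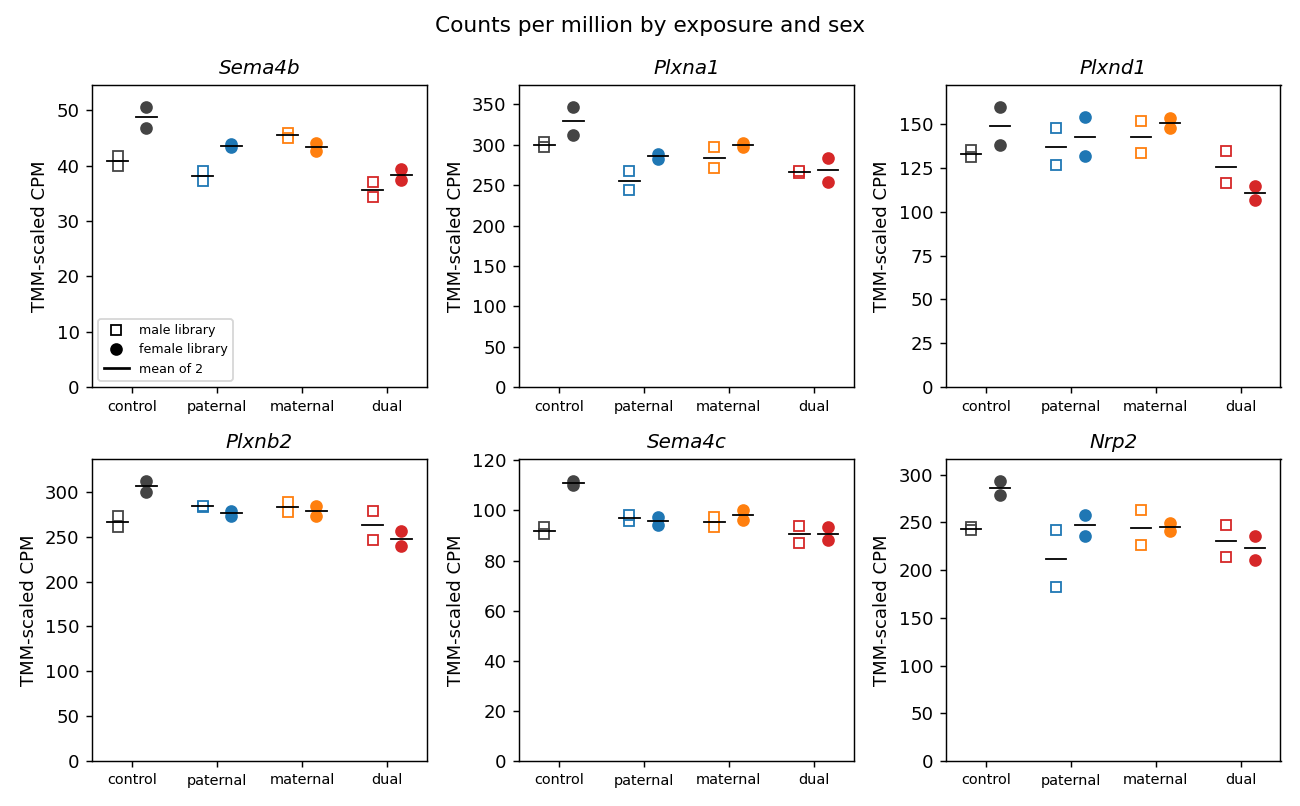
TMM-scaled CPM of the 6 members that passed in dual against control females, by exposure and sex; squares are male and filled circles female libraries, and bars are means of 2. Sema4b and Plxna1 are lower in all 4 dual than in all 4 control libraries, while for Plxnb2 and Sema4c the female controls stand above the other libraries.

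Taken by sex, the members that passed did so in females. In dual against control females 6 of 31 members (19.4%) passed, all lower, against 15% of all genes in either direction and 5.64% called lower; the share over both directions is close to the background. Plxnb2 was at 312 and 300.1 CPM in female controls and at 257 and 239 in female dual libraries (-0.30 ± 0.07, adjusted p = 0.00866). Its ligand Sema4c was at 112 and 110 CPM against 93.3 and 88.3 (-0.29 ± 0.07, adjusted p = 0.0102). Plxnd1 had the largest log2 fold change of the 6, from 138 and 159.7 CPM to 115 and 107 (-0.43 ± 0.10, adjusted p = 0.0105). Nrp2 was at 293 and 279 CPM against 211 and 236 (-0.36 ± 0.11, adjusted p = 0.0373). Sema4b and Plxna1, with the values given above, had -0.34 ± 0.08 (adjusted p = 0.0102) and -0.29 ± 0.08 (adjusted p = 0.0160). The 2 dual libraries lay below the 2 control libraries for each of the 6 genes.

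For 5 of these 6 genes the female controls had the highest of the 8 group means, and for Plxnd1 the maternal females did. Sema4c was at 87.1 to 100.3 CPM in the 14 libraries other than the female controls, which stood at 110 and 112. The ratio of Nrp1 to Nrp2 CPM, used only to compare libraries, was 0.400 and 0.408 in the female controls and 0.464 to 0.659 in the other 14 libraries. Leaving out 1 library left between 2 members (without female dual replicate 2) and 10 members (without female control replicate 2) past the threshold. Plxnb2 (adjusted p = 0.104), Sema4c (0.107) and Plxnd1 (0.1002) lost the call without female dual replicate 2, Sema4b (0.0662) without female dual replicate 1, and Plxna1 without female control replicate 2 (0.0513) or female dual replicate 1 (0.129). Nrp2 lost it without female control replicate 1 (0.0803), female dual replicate 1 (0.196) or female dual replicate 2 (0.0712). None of the 6 passed with the covariate, with protein-coding genes alone, or with the 4 libraries fitted by themselves. The covariate cannot be told apart from dual exposure in females, as said above. With the covariate the log2 fold changes were -0.46 for Plxnd1, -0.48 for Sema4c, -0.40 for Nrp2 and -0.39 for Plxna1, and smaller in size for Sema4b (-0.18) and Plxnb2 (-0.12). In the 4 libraries by themselves they ran from -0.46 to -0.33, with adjusted p of 0.0651 to 0.127. With protein-coding genes alone they were -0.35 for Plxnd1, -0.28 for Nrp2, -0.26 for Sema4b and -0.22 for Plxnb2 and Plxna1. Over the 8 other settings Sema4c ran from -0.48 to -0.21. Of the 31 members, 21 were below 0 in the protein-coding fit, with a median of -0.05, against 26 and -0.13 in the main fit. The median over all 15056 genes in the protein-coding fit was 0.0031.

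In males, 0 members and 0% of all genes passed in dual against control by edgeR, and 0 members by DESeq2, while 4 members had an unadjusted p under 0.05, all lower, against 4.86% of all genes. These were Sema4d, a ligand of Plxnb1 (-0.22 ± 0.10), Sema4b (-0.20 ± 0.09), Plxna1 (-0.17 ± 0.08) and Sema3f (-0.20 ± 0.09), each with an adjusted p of 0.942. Plxnb2 was at 261 and 273 CPM in male controls and at 247 and 278 in male dual libraries, and Sema4c at 93.5 and 90.5 against 93.7 and 87.1. Both overlapped.

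The difference between the sexes was tested directly, and 0 members passed by edgeR or DESeq2, against 3.5% of all genes. At an unadjusted p under 0.05 there were 6 members, 5 with a higher male than female log2 fold change and 1 with a lower one, against 20.4% of all genes. The smallest adjusted p were 0.123 for Plxnb2 (male minus female 0.28 ± 0.10) and 0.141 for Sema4c (0.26 ± 0.10). Plxnd1 had 0.34 ± 0.15 (adjusted p = 0.196). So the female calls were not shown to differ from the male values.

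**Figure D4:**
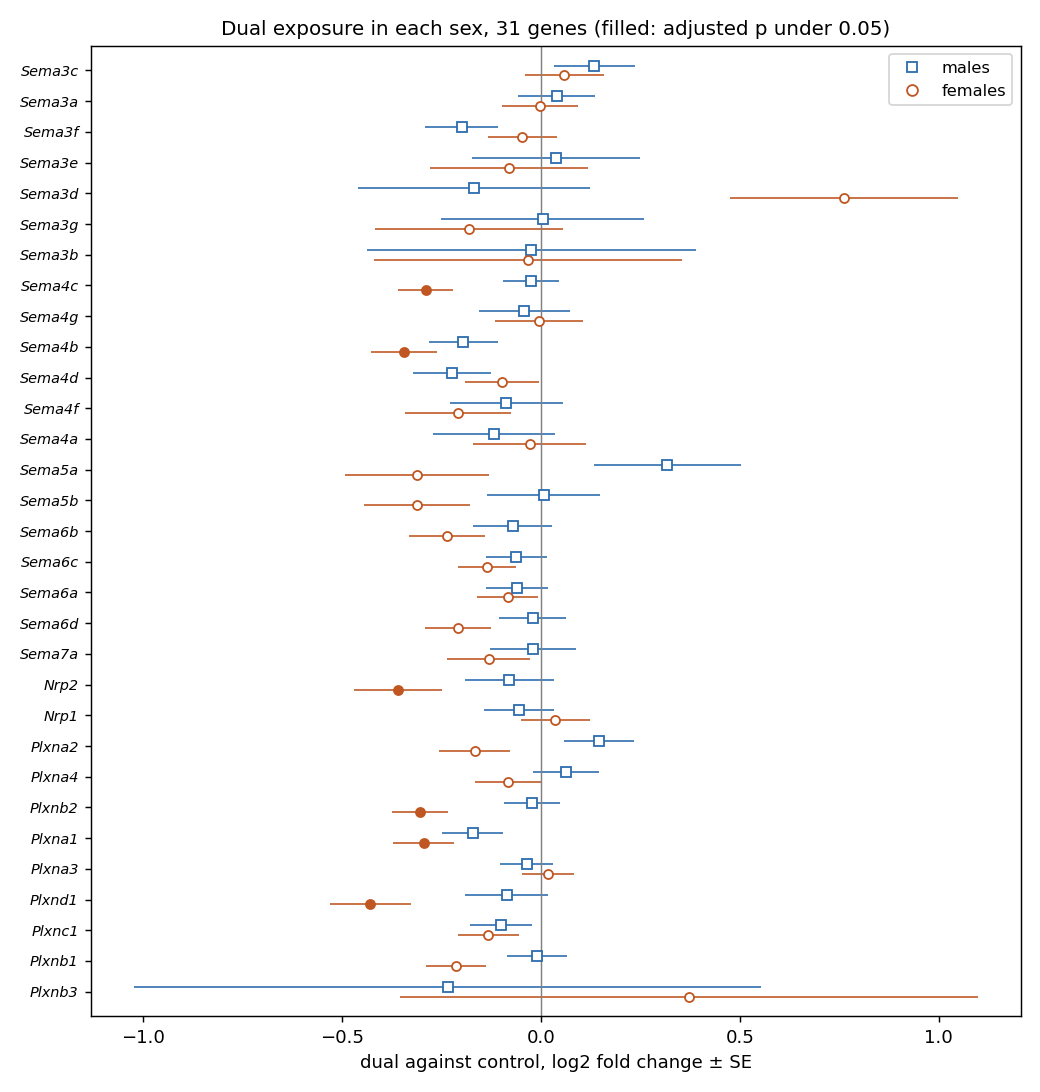
Log2 fold change ± SE of each gene in dual against control fetuses, in males (squares) and females (circles), 2 libraries against 2; filled points have an adjusted p under 0.05. The 6 filled points are female and lie between -0.43 and -0.29, and the male values of the same genes lie between -0.20 and -0.02.

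Dual exposure was also set against each single exposure, to ask whether both parents' exposure differs from one alone. Against maternal exposure, 2 members passed by edgeR (6.45%, a share close to the 5.76% of all genes; 1.34% were called lower). Sema4b was at 44.0, 42.6, 45.9 and 45.0 CPM in maternal libraries, above all 4 dual libraries (-0.26 ± 0.06, adjusted p = 0.0156). Plxnd1 was at 148, 154, 134 and 152 CPM in maternal libraries and at 115, 107, 135 and 117 in dual ones (-0.31 ± 0.07, adjusted p = 0.0179), with overlap through male dual replicate 1. Against paternal exposure, Plxnd1 alone passed (-0.25 ± 0.07, adjusted p = 0.0444), 1 of 31 (3.23%) against 8.81% of all genes and 2.16% called lower. Plxnd1 was at 154, 132, 148 and 127 CPM in paternal libraries. That call was lost without any 1 of the 4 dual libraries, female paternal replicate 1 or male paternal replicate 1, with adjusted p up to 0.205. Of the calls against maternal exposure, Sema4b was lost without female dual replicate 1 (0.0503), female maternal replicate 1 (0.0597), male dual replicate 1 (0.106) or male maternal replicate 1 (0.0614). Plxnd1 was lost without female dual replicate 2 (0.0807), female maternal replicate 2 (0.0772) or male maternal replicate 2 (0.0662).

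The dual difference was compared with the sum of the paternal and maternal differences. No member passed by edgeR or DESeq2, against 4.21% of all genes, and 4 members had an unadjusted p under 0.05, 2 on each side, against 19.6% of all genes. Sema6a had the smallest adjusted p (0.23 ± 0.08, adjusted p = 0.103) and was at 125, 144, 138 and 137 CPM in dual libraries, where 3 of 4 were above every paternal and maternal library. Plxnd1 came next on the other side (-0.31 ± 0.10, adjusted p = 0.105). Without female control replicate 1 Sema6a passed (0.0191), and without female control replicate 2 Plxnd1 passed (0.0224).

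Plxnd1 is expressed by endothelial cells as well as neurons, and endothelial markers were low in the dual libraries. They were also low in female control replicate 1 (a summed 154 CPM), where Plxnd1 lay above every dual library. The summed level of 8 endothelial markers was 149.9 to 199 CPM in dual libraries, 154 to 241 in controls, 219.7 to 252 in paternal and 222 to 253 in maternal ones. Of the 8, Tie1 (-0.50 ± 0.12) and Pecam1 (-0.40) passed in dual against control, both lower, and each lost its call without at least 5 of the 8 libraries left out in turn. Against maternal exposure 4 of the 8 were called lower, and against paternal exposure 6. Of all genes, 0.641% were called lower in dual against control, 1.34% against maternal and 2.16% against paternal exposure. With protein-coding genes alone, only 0.279% and 1.38% of genes passed in either direction against maternal and paternal exposure. In bulk tissue fewer cells of a type and less RNA per cell cannot be told apart, and the part of these cells in the Plxnd1 difference was not tested. Of the 4 Cajal-Retzius markers, Reln was lower in dual against control (-0.23 ± 0.06, adjusted p = 0.0334), a call kept without only 2 of the 8 libraries and lost with protein-coding genes alone (0.160). Meningeal and fibroblast markers, 8 genes, summed to 224 to 381 CPM in dual libraries, 430 to 580 in paternal and 368 to 612 in maternal ones. In controls they summed to 83.5 in female replicate 1 and 402 to 498 in the other 3. Thalamic markers, 4 genes, summed to 155.7 in female control replicate 2 and to 84.3 to 106.4 in all other libraries. The 7 markers of GABAergic interneurons and ventral forebrain summed to 906.5 in female control replicate 1 and to 688 to 808 in all others. The part of these marker lists in the differences of the members was not tested.

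**Figure D5:**
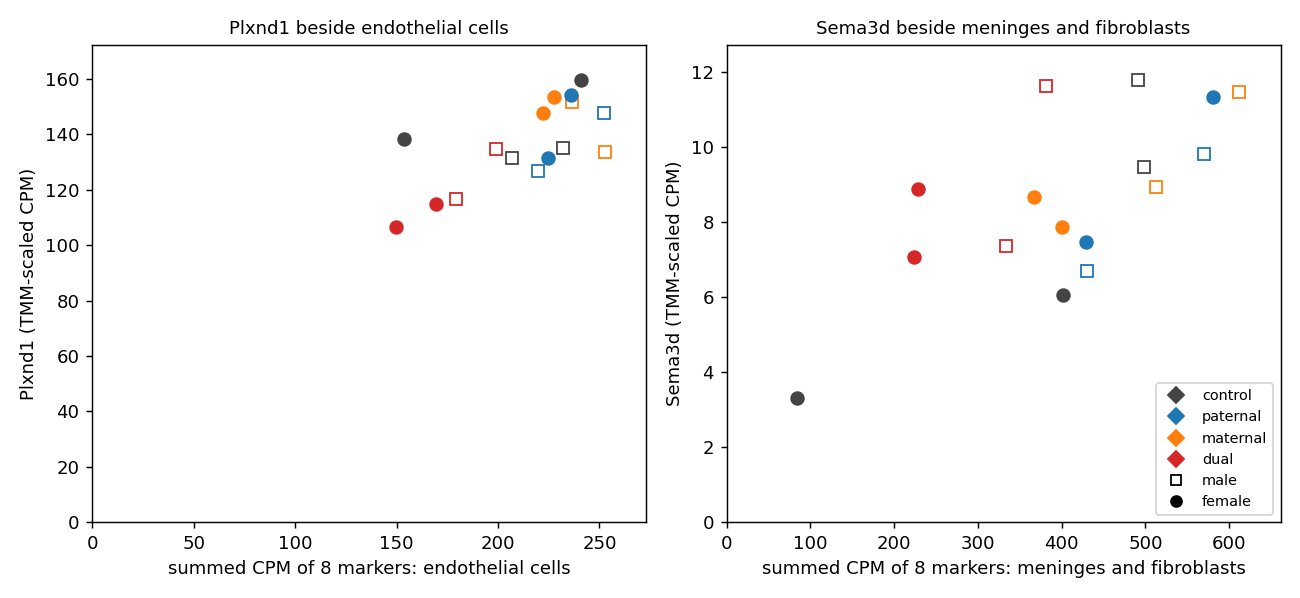
Left, Plxnd1 CPM against the summed CPM of 8 endothelial markers; right, Sema3d CPM against the summed CPM of 8 meningeal and fibroblast markers, 1 point per library. The 4 dual libraries sum to 149.9 to 199 on the left, and female control replicate 1 lies lowest on the right at 83.5 and 3.32.

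Sema3d, a secreted class 3 ligand, had the largest absolute log2 fold change of any member in females in each of the 3 comparisons with control. It was at 3.32 and 6.05 CPM in female controls and at 7.06 to 11.4 in the other 6 female libraries. The log2 fold change in females was 1.01 ± 0.28 after paternal exposure (adjusted p = 0.334) and 0.76 ± 0.29 after dual exposure (adjusted p = 0.0837), and neither passed by edgeR. DESeq2 called the dual difference (0.77, adjusted p = 0.0476). Without female control replicate 2, leaving only replicate 1 with its low meningeal markers, the paternal value was 1.503 (adjusted p = 0.00862) and the dual value 1.25 (0.00905). Without female control replicate 1 they were 0.64 (0.332) and 0.39 (0.396). Male controls were at 9.47 and 11.8 CPM, and the male minus female difference of the paternal log2 fold changes was -1.38 ± 0.41 (adjusted p = 0.328).

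Averaged over exposures, 1 member differed between males and females. By edgeR 1 of 31 (3.23%) passed, against 0.877% of all genes in either direction and 0.473% called lower. Sema6c, a membrane ligand of class A plexins, was at 83.1 to 92.6 CPM in the 8 male libraries (median 89.9) and at 93.8 to 112 in the 8 female ones (median 101), without overlap. The log2 fold change was -0.17 ± 0.04 (adjusted p = 0.0320). It lost the call without any 1 of 13 of the 16 libraries, with adjusted p up to 0.104, and kept it without either female control or without male maternal replicate 1. Sema3f was the next (-0.18 ± 0.04, adjusted p = 0.0782), at 31.9 to 39.3 CPM in males and 34.9 to 42.0 in females. At an unadjusted p under 0.05, 11 members were lower and 1 higher in males, against 11.4% of all genes. Plxna3 and Plxnb3, the 2 X-linked members, did not pass.

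Inside the cell, plexins act through adaptors, kinases and cytoskeletal proteins. A list of 46 binding partners and effectors was examined, of which 45 were tested and Timd2 was too low. In dual against control over both sexes 0 of 45 passed by edgeR, against 3.36% of all genes. At an unadjusted p under 0.05, 10 were lower and 0 higher, against 8.36% of all genes that were lower at that p. In females 9 of 45 (20%) passed an adjusted p of 0.05, all lower, against 15% of all genes in either direction and 5.64% called lower. Gipc1, an adaptor that binds the tails of Nrp1 and Plxnd1, was at 48.5 and 45.5 CPM in female controls and at 36.7 and 33.6 in female dual libraries (-0.42 ± 0.09, adjusted p = 0.00412). Rapgef1, an exchange factor for Rap, went from 221 and 227 CPM to 188 and 179 (-0.28 ± 0.06, adjusted p = 0.00737). The collapsin response mediator Crmp1, a phosphoprotein that relays Sema3a signals to microtubules, was at 1268 and 1365 CPM against 1066 and 1111 (-0.27 ± 0.07, adjusted p = 0.0137). Its relative Dpysl3 was at 2977 and 3075 CPM against 2426 and 2557 (-0.28 ± 0.07, adjusted p = 0.0103). The other 5 were Arhgap35, the kinases Fyn and Pak1, Cdk5r1, an activator of Cdk5, and Mical1, an enzyme that takes actin filaments apart. Over 8 other settings of the fit, Arhgap35 kept the call in 5, Fyn, Pak1 and Mical1 in 4 each and Cdk5r1 in 2. With 1 of the 4 libraries left out in turn, Arhgap35 kept the call in 2 fits and the other 4 genes in 1 each. Over the same 8 settings Gipc1 kept the call in 6, and Rapgef1, Crmp1 and Dpysl3 in 5 each. All 9 effectors lost it with the covariate, which cannot be told apart from dual exposure in females, and with the 4 libraries fitted by themselves. With protein-coding genes alone only Gipc1 kept it. With the covariate the log2 fold changes were -0.12 for Gipc1, -0.25 for Rapgef1, -0.14 for Crmp1 and -0.096 for Dpysl3. Gipc1 was at 35.0 and 32.8 CPM in male controls and at 34.1 and 34.3 in male dual libraries, and the sex difference of its dual log2 fold changes did not pass (0.43 ± 0.13, adjusted p = 0.0670). Gipc1 and Rapgef1 lost the call without female dual replicate 2 (0.0611 and 0.0862), Dpysl3 without female dual replicate 1 (0.0712), and Crmp1 without female dual replicate 1 (0.0789) or 2 (0.0539).

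Few effectors passed in the other comparisons, 2 of 45 (4.44%) against maternal exposure and 3 of 45 (6.67%) against paternal exposure, all lower. Of all genes, 5.76% and 8.81% passed in either direction, and 1.34% and 2.16% were called lower. Against maternal exposure Gipc1 (-0.26 ± 0.06, adjusted p = 0.0213) and Kdr, the vascular receptor that pairs with neuropilins (-0.39 ± 0.11, adjusted p = 0.0454), were lower in dual libraries, and Kdr lost the call without any 1 of the 8 libraries and Gipc1 without 5 of them. Against paternal exposure Gipc1 (-0.24 ± 0.06, adjusted p = 0.0245), Itgb1, the integrin subunit that binds Sema7a (-0.21 ± 0.06, adjusted p = 0.0291), and Erbb2, a kinase that joins B-class plexins (-0.52 ± 0.13, adjusted p = 0.0184), were lower. Each of these 3 lost its call without 5 of the 8 libraries. Erbb2 was at 6.67 to 7.89 CPM in the 4 dual libraries and at 10.03 to 10.8 in the paternal ones, without overlap. With protein-coding genes alone, every effector call against maternal or paternal exposure was lost, at adjusted p from 0.0859 for Erbb2 to 0.181 for Kdr. With the covariate all were lost too, at log2 fold changes from -0.63 for Erbb2 to -0.027 for Itgb1. Itgb1 was also lower in dual libraries than the sum of the single exposures gives (-0.35 ± 0.08, adjusted p = 0.0206), a call kept without 10 of the 16 libraries left out in turn. It and Rap1b, a small GTPase, passed between males and females, higher in males (0.18 ± 0.04 and 0.20 ± 0.04, adjusted p = 0.0447 and 0.0431), and kept the call without only 3 and 2 of the 16. In the paternal and maternal comparisons with control 0 of 45 passed. Itgb1 alone, 1 of 45 (2.22%), departed from the sum of the single exposures, against 4.21% of all genes in either direction. That call was lost with protein-coding genes alone (adjusted p = 0.129) and with the covariate (log2 fold change -0.15). Between the sexes the 2 of 45 (4.44%) stood against 0.877% of all genes. With the covariate Itgb1 and Rap1b lost that call (adjusted p = 0.568 and 0.508).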

How the data were processed

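The raw gene counts were deposited by the authors, 1 file per library, and are used as deposited; per the submitters' processing notes, reads were trimmed with Trimmomatic, aligned with STAR to GRCm39 and counted with featureCounts, with versions not given in the sources used here. Libraries came from total RNA with a TruSeq total RNA kit, per the labels' protocols. Gene names, classes and exon lengths were taken by gene identifier from GENCODE M21, and 52083 of 55359 identifiers had a symbol there.

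Fits were made in R 4.3.3 with edgeR 4.0.16: TMM scaling, filterByExpr (minimum count 10, minimum total count 15), 8 group means over 16 libraries (8 residual degrees of freedom), two-sided quasi-likelihood tests and Benjamini-Hochberg adjustment over all genes tested, threshold 0.05. A comparison over both sexes is the mean of the male and female difference. The pipeline was tested on simulated data, with 1.5-fold changes recovered for 90% of the changed genes in a dual against control comparison of 21543 genes. Smaller changes, such as those of the called members over both sexes, were not simulated, nor were comparisons within a sex. DESeq2 1.42.0 was an alternative, as were other scaling, filters, models, depth and each library left out. Leaving out 1 library leaves its group with 1, which is then assumed to vary like the others.

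All members may be named; library values are given for members that passed any comparison, for the 3 of smallest p against control in each exposure group, and for the highest of each role. The members, lists and tests were chosen with earlier results of these data known.

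In every group the 2 libraries differed by more than counting noise (median squared difference 1.69 to 6.14, against 0.455 from noise alone), so none was counted as a duplicate. Counts set the precision of each value: the 4 members with fewest reads had a lowest count of 0 (Plxnb3), 21 (Sema3b), 50 (Sema3g) and 110 (Sema3d).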

Additional observations from a re-analysis of the deposited data

Results flagged for a closer look

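In 6 of 124 sets of 4 libraries (31 genes by 4 exposure groups), 1 library stood apart from the other 3 by more than Dixon's 95% criterion; chance marks about 1 in 20 such sets, which is close to what was found. In controls, female replicate 2 was lowest for Sema3a at 85.8 CPM against 109 to 112 in the other 3, highest for Sema4a at 26.0 against 19.6 to 20.5, and highest for Sema4f at 34.6 against 26.3 to 26.8. Female control replicate 1 was highest for Sema5a at 197 CPM against 105 to 115. In dual libraries, female replicate 2 was lowest for Plxna2 at 802 CPM against 883 to 897. In maternal libraries, male replicate 1 was lowest for Sema4d at 42.6 CPM against 49.2 to 50.3. Of the 6, 4 were in the female controls.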

How the results depend on the processing

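Among females, only the dual libraries were high in unverified and sense-intronic transcripts. A fit with that share as a covariate therefore cannot separate it from dual exposure in females. The number of members called changed as follows, where the cause was not tested. With the share of unverified and sense-intronic transcripts as a covariate it was 0 in dual against control (2 in the main analysis), in the same comparison in females (6), in dual against maternal (2), in dual against paternal (1) and between males and females (1). With protein-coding genes alone it was 0 in the first 4 of these, where all genes called over both sexes in dual against control fell to 0 of 15056. The additive model gave 0 in dual against control, in dual against paternal and between the sexes; the compared groups fitted alone gave 0 in dual against control over both sexes and in females, and 1 in paternal against control in males; thinning every library to 15336566 counts gave 0 in dual against paternal. Without the filter on low counts it was 4 in dual against control, 2 between the sexes, 2 in paternal against control, 1 each in paternal against control in females and in males, 1 in maternal against control in females, 1 for the departure from additivity, and 3, 1 and 2 for the sex difference of the dual, maternal and paternal effect. DESeq2 called 2 between the sexes, and also 3 in dual against control and 7 in females, where the fit without the filter gave 8. Of all genes, DESeq2 called 1.44%, 4.47% and 14.8% in these 3 comparisons, and the fit without the filter 1.61%, 3.59% and 9.69%. The latter also called 0.856% in paternal against control and 4.82% for the departure from additivity. For the sex difference of the dual, maternal and paternal effect it called 4.11%, 0.741% and 0.89%. The median level of the 31 genes was 12.7 CPM per kilobase, and 18.3 with the longest transcript as length.

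Leaving out 1 library at a time gave 0 to 5 calls in dual against control, 2 to 10 in females and 0 to 0 in males, 1 to 3 in dual against maternal, 0 to 1 in dual against paternal, 0 to 5 between the sexes, 0 to 3 for the departure from additivity, 0 to 4 in paternal against control (0 to 2 in females, 0 to 0 in males), 0 to 0 in maternal against control (0 to 2 in females, 0 to 0 in males), and 0 to 4, 0 to 1 and 0 to 3 for the sex difference of the dual, maternal and paternal effect. The counts of 5, and of 4 in paternal against control, came without female control replicate 1; those of 10, and of 4 for the sex difference of the dual effect, came without female control replicate 2. The share of all genes called moved too: 9.32% in dual against control without female control replicate 1, and in females 18.3% without female control replicate 2 and 5.43% without female dual replicate 2, which left 2 members.

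The labels do not say that replicate numbers pair libraries, and over 28 pairs of groups the correlation of same-numbered deviations ran from -0.14 to 0.18. A replicate block for these numbers gave 2, 6, 2, 1 and 1 calls in the 5 comparisons with calls, as without it. Among single genes, 2 of 664 values under other settings and 6 of 580 with a library left out changed sign, all for differences that had not passed except Cdk5r1 in dual females (0.089 with the covariate). With a library left out, the dual log2 fold change in males ran from -0.19 to 0.022 for Nrp2, from -0.11 to 0.061 for Plxnb2 (with 0.0081 without male control replicate 2), from -0.20 to 0.016 for Plxnd1 and from -0.080 to 0.029 for Sema4c (with 0.0048 without male control replicate 1); the ends came from leaving out 1 or the other male dual library. The sex difference of the dual effect for Sema4b was -0.032 with the covariate. Depth limits Plxnb3, Sema3b and Sema3g most, the members with the fewest counts.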

Other observations

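Membrane ligands and their known receptors were compared as pairs only by level. Per kilobase of exon, Plxnb2 (36.0) stood above its ligand Sema4c (20.7), Plxnc1 (17.5) close to its ligand Sema7a (18.0), Plxnd1 (18.5) above its secreted ligand Sema3e (1.05), and Plxnb1 (16.5) above its ligand Sema4d (6.24), each as the median over 16 libraries. Plxnc1 and Sema7a overlapped over the libraries, at 15.1 to 19.6 and 16.8 to 21.3, while the other 3 pairs did not overlap.

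The female controls set the extremes of many members. Their mean was the highest of the 8 group means for 15 of the 31 genes and the lowest for 3. These are values only, and their part in the female comparisons was not tested.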
